A study of Mus musculus with 10 samples.

Results

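The transcripts described here encode the CREB family of transcription factors and their coactivators: Creb1, Crem, Atf1, Atf2, Atf4, Crtc1, Crtc2, Crtc3, Crebbp and Ep300. They were chosen by name as the members of this family and its coactivator set, and all 10 were present among the 32531 gene symbols counted in every library. The study used translating ribosome affinity purification (TRAP), in which EGFP fused to the ribosomal protein L10a is expressed from a Drd2 driver, so that messenger RNA on tagged ribosomes can be pulled down with antibodies to EGFP and sequenced. The mice were adults of the Drd2-TRAP CP101 line, the tissue was the whole striatum, and the animals had taken part in short access intravenous self-administration of saline or of cocaine. The immunopurified (IP) libraries numbered 3 after saline (numbers 1, 2 and 4) and 5 after cocaine (numbers 1 to 5). One input library of total RNA came from the saline arm, and one unbound library, the RNA left after the pull-down, came from the cocaine arm. Every library of both arms, references included, came from the same transgenic line. The labels call the profiled cells medium spiny neurons; as background, the Drd2 driver is also active in cholinergic interneurons of the striatum. The labels do not say whether the libraries of a group came from separate animals or from pools, so the p-values below measure only the spread between these libraries.

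CREB1, CREM and ATF1 are closely related basic leucine zipper proteins that bind the cAMP response element (CRE) in promoters. They become active when kinases of the cAMP, calcium and growth factor pathways phosphorylate them, which recruits the acetyltransferases CBP (Crebbp) and p300 (Ep300). The CRTC proteins are coactivators that wait in the cytoplasm while SIK kinases keep them phosphorylated, and enter the nucleus when calcineurin removes the phosphate. ATF2 and ATF4 belong to more distant branches, ATF2 answering to stress kinases and ATF4 being made mainly through translation of its messenger when eIF2 is phosphorylated. In the striatum CREB is best known for the transcription that follows dopamine, cAMP and psychostimulants.

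The palindrome TGACGTCA is the full CRE and its shorter core is TGACG. In the RefSeq promoter table (assembly GRCm38.p6, 250 bases before to 50 after each gene's start) 8 of the 10 genes had an entry, Crem and Crtc2 having none. A full CRE lay in 0 of these 8 windows, against 2.03% of the 27025 genes in the table. The core, searched on both strands and counted also where it is part of the palindrome, lay in 2 of the 8 (Atf1 and Atf4), against 23.05% of all genes. Of 20 genes listed as CREB targets, a list chosen with earlier results of these data known, 16 had an entry. Of these, 3 held a full CRE (Cartpt, Sst and Dusp1) and 14 the core. Of the 2 family genes with the core, Atf1, whose core lies before the start, is printed and Atf4 is not. The stretches below show what such a site looks like in Atf1 and in other genes whose transcripts are reported further on. They are written 5′ to 3′ on the gene's strand, with the full CRE or the core in capitals: Sst at chr16:23890875-23890902 on the minus strand, Cartpt at chr13:99900778-99900805 (minus), Dusp1 at chr17:26508598-26508625 (minus), Fos at chr12:85473814-85473838 (plus), Junb at chr8:84978840-84978864 (minus) and Atf1 at chr15:100227759-100227783 (plus).
Sst: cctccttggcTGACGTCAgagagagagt
Cartpt: cggcgggcatTGACGTCAaacggcagcg
Dusp1: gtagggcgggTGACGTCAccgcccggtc
Fos: ttccgcccagTGACGtaggaagtcc
Junb: ttcctgacagTGACGcgagccgcct
Atf1: gaccacgcggTGACGcagcacgccg
In Sst, Cartpt and Dusp1 the CRE lies entirely before the start. A match describes letters in this window only, and the counts cannot show whether a protein bound there.

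The IP libraries held 22975667 to 31631137 gene reads, the input 18408782 and the unbound library 20882691. Drd2 itself stood at 2447 ± 239 CPM (reads of a gene scaled to library size; SD, n = 3) in saline IP and 2031 ± 368 (SD, n = 5) in cocaine IP, against 358 (input) and 352 (unbound). Relative to the input, each saline IP library was enriched 2-fold or more in all 8 indirect-pathway (Drd2) markers and depleted 2-fold or more in all 9 direct-pathway and all 10 oligodendrocyte markers. Relative to the unbound library, 7 of the 8 were 2-fold or more higher in every cocaine IP library. Of the direct-pathway and oligodendrocyte markers, 8 of 9 and 10 of 10 were 2-fold or more lower in every one. Of the 10 astrocyte markers, 9 summed to 51.8 to 156 CPM over the IP libraries, against 1888 in the input, while Slc4a4 was not lower in every library, at 209 to 421 CPM against 282 (input) and 241 (unbound). Cholinergic interneuron markers summed to 16.6 to 40.4 CPM in the IP libraries, against 51.6 (input) and 35.6 (unbound), with Gbx2 at 0 throughout. Of 11 markers of medium spiny neurons in general, 10 were higher in every IP library than in its reference and 1, Rgs9, was lower. Oligodendrocyte markers still summed to 229 to 525 CPM in the IP libraries, against 5147 (input) and 5465 (unbound). The label is thus met by most of its defining markers, with markers of other cells still present. Sequencing lanes differed between groups: lane 7 held saline IP 1 and 2, lane 6 held saline IP 4 with cocaine IP 1 and 2, lane 4 held cocaine IP 3 to 5, and lane 1 held both reference libraries. Treatment and lane are therefore partly, and the IP and reference fractions wholly, confounded with lane.

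All CREB family transcripts were detected in every library, the lowest count being 172 reads, for Crtc3 in cocaine IP 2. On the scale of CPM per kilobase of merged exons, averaged over the 8 IP libraries, Atf2 stood at 64.6 ± 6.15 (SD) and Atf4 at 58.2 ± 10.5, with overlapping ranges. These levels lay above those of 94.4% and 93.7% of 11321 genes. Atf1 (12.3 ± 3.24), Crebbp (11.6 ± 1.73) and Crtc1 (11.1 ± 1.68) formed a second tier whose neighbours in the order overlapped in range. Ep300 (6.59 ± 0.79), Creb1 (6.59 ± 0.83) and Crem (4.92 ± 0.46) came next, again each overlapping the next, and Crtc2 (2.76 ± 0.29) and Crtc3 (0.848 ± 0.13) stood apart at the bottom. The order of the 2 highest and 2 lowest did not depend on the gene length used, but the middle did: with the length of the longest coding transcript, a choice added after seeing the data, the order of the middle genes was Crtc1, Atf1, Crebbp, Creb1, Crem and Ep300. Among the CRTC coactivators Crtc1 was the most abundant with both lengths, and among the acetyltransferases Crebbp stood above Ep300 with both.

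**Figure D1:**
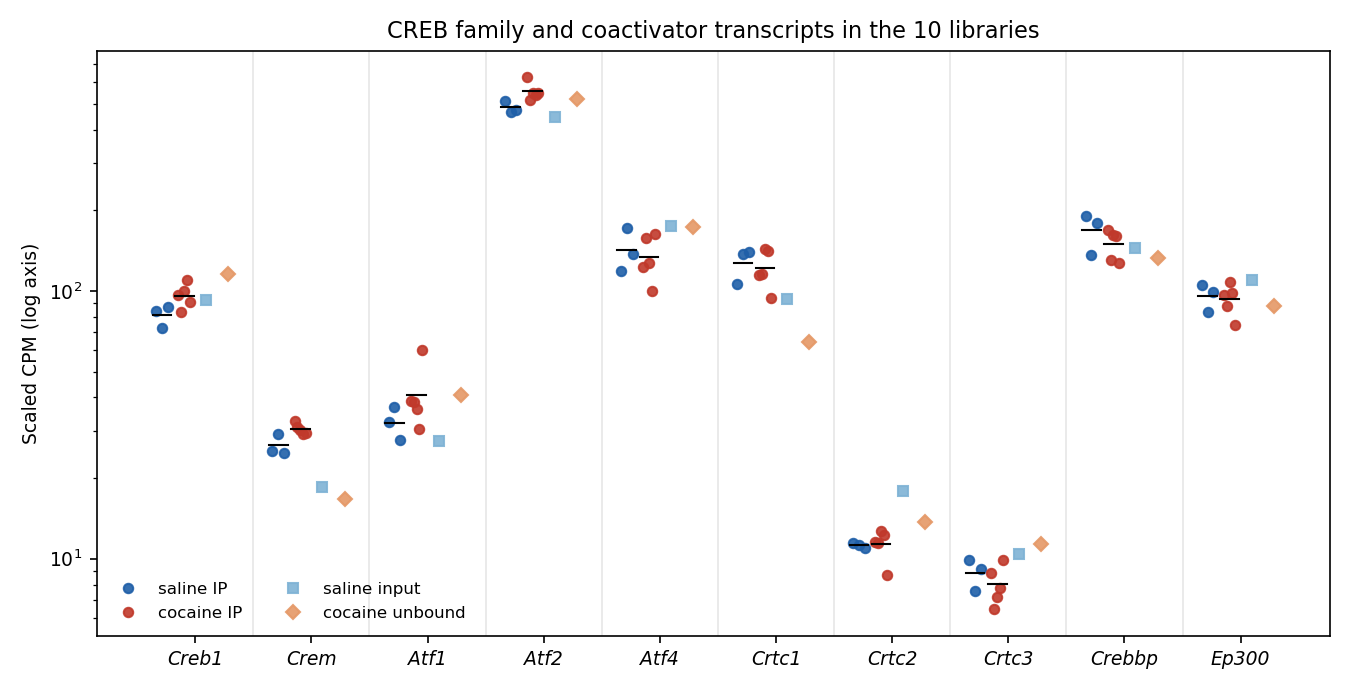
Scaled CPM (log axis) of each gene in each library, with saline IP, cocaine IP, input and unbound libraries as separate point types. The ranges of several genes coincide, as for Creb1 and Ep300, and Crem and Crtc1 are the genes whose reference points fall below every IP point; values are not divided by gene length.

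Creb1 (chr1:64532645-64604548, plus strand, mm10), the founding activator of the family, was slightly lower in ribosome-bound RNA than in either reference. It stood at 84.4, 72.7 and 87.0 CPM in saline IP 1, 2 and 4 and at 92.6 in the input. In cocaine IP 1 to 5 it stood at 96.9, 83.2, 99.5, 109 and 91.1 CPM, against 116 in the unbound library. Every IP library thus lay below its reference, by a mean log2 ratio of (CPM + 1) of -0.19 ± 0.14 (SD, n = 3) against the input and -0.27 ± 0.15 (SD, n = 5) against the unbound library. With a single reference library in each case there is no test of these ratios, and in whole tissue, fewer cells of a type and less RNA per cell cannot be told apart.

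Crem (chr18:3266048-3337748, minus strand), which encodes both activators and, from an internal promoter, the short repressor ICER, had the highest ratios of the 5 DNA-binding factors. Saline IP 1, 2 and 4 held 25.2, 29.3 and 24.9 CPM, against 18.6 in the input (counting interval 16.8 to 20.5). Cocaine IP 1 to 5 held 32.7, 31.0, 30.3, 29.1 and 29.5 CPM, against 16.7 in the unbound library (15.1 to 18.5). All 8 IP libraries were therefore above their reference and above the upper end of its interval, which is an exact Poisson interval of 95% that covers counting error only. The mean log2 ratio was 0.49 ± 0.13 (SD, n = 3) against the input and 0.83 ± 0.06 (SD, n = 5) against the unbound library, a 1.401-fold and a 1.78-fold ratio. With scaling to library size alone the ratios were 0.29 and 0.65 and remained positive in every library. The counts sum all Crem isoforms, so ICER is not separated. Exons of the opposite-strand gene Gm6225 overlap 8.01% of Crem's exons, and the strand setting of the counting is not given in the sources used here. Gm6225 itself held at most 1.38% as many reads as Crem in the IP libraries but 6.51% and 6.96% in the input and unbound libraries.

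Atf1 (chr15:100227819-100261244, plus strand), another close relative of CREB1, differed little from either reference, and 1 library stood apart. It stood at 32.3, 36.8 and 27.6 CPM in saline IP 1, 2 and 4 and 27.6 in the input. In cocaine IP 1 to 5 it stood at 39.0, 38.3, 36.4, 30.6 and 60.1 CPM, against 40.8 in the unbound library. Cocaine IP 5 alone lay above the unbound library, and the lowest saline library was level with the input. The mean log2 ratios were 0.21 ± 0.20 (SD, n = 3) and -0.03 ± 0.35 (SD, n = 5), and the first was 0.01 with scaling to library size. A processed pseudogene, Atf1-ps, matches Atf1 over 810 bases at 98.4% identity, so reads shared between them may have been lost or misplaced in counting. The only match found for Crem was Gm6225, the opposite-strand gene whose exons overlap its own, over 374 bases at 99.7% identity. Of the other 8 genes, 0 had a match of at least 100 bases at 95% identity or more.

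Atf2 (chr2:73816509-73892639, minus strand), a partner of Jun proteins, was present at nearly the same level in all fractions. It stood at 512, 466 and 474 CPM in saline IP 1, 2 and 4, against 446 in the input. In cocaine IP 1 to 5 it stood at 627, 517, 547, 537 and 549 CPM, against 520 in the unbound library. The mean log2 ratios were 0.12 ± 0.07 (SD, n = 3) and 0.09 ± 0.10 (SD, n = 5), and both changed sign with scaling to library size, to -0.09 and -0.10. Atf4 (chr15:80255184-80257541, plus strand) was lower in every IP library than in its reference. It ranged from 119 to 171 CPM in saline IP and from 99.7 to 163 in cocaine IP, with 174 CPM in each reference. Its mean log2 ratios were -0.30 ± 0.27 (SD, n = 3) and -0.39 ± 0.29 (SD, n = 5), among the widest spreads between libraries.

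The 3 CRTC coactivators went in different directions. Crtc1 (chr8:70382355-70439579, minus strand), the CRTC form best known from neurons, stood at 106, 137 and 139 CPM in saline IP 1, 2 and 4, against 93.5 in the input. In cocaine IP 1 to 5 it stood at 114, 116, 143, 141 and 93.8 CPM, against 64.5 in the unbound library (counting interval 61.2 to 67.8). It was higher in all 8 IP libraries than in their reference, with mean log2 ratios of 0.43 ± 0.22 (SD, n = 3) and 0.89 ± 0.25 (SD, n = 5), which were 0.23 and 0.70 with scaling to library size and positive in every library there too. Crtc2 (chr3:90254163-90264125, plus strand), the form known from liver gluconeogenesis, ranged from 11.0 to 11.5 CPM in saline IP, against 17.9 in the input, and from 8.69 to 12.7 in cocaine IP, against 13.7 in the unbound library. Crtc3 (chr7:80586627-80688877, minus strand) ranged from 7.55 to 9.89 CPM in saline IP, against 10.4 in the input, and from 6.49 to 9.90 in cocaine IP, against 11.3 in the unbound library. Both lay below their reference in every library, Crtc2 at -0.63 ± 0.03 (SD, n = 3) and -0.27 ± 0.20 (SD, n = 5) and Crtc3 at -0.22 ± 0.18 (SD, n = 3) and -0.46 ± 0.21 (SD, n = 5) on the log2 scale.

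Of the acetyltransferases that CREB recruits, Crebbp (chr16:4081328-4213997, minus strand), encoding CBP, ranged from 136 to 190 CPM in saline IP, against 145 in the input, and from 127 to 169 in cocaine IP, against 133 in the unbound library. Ep300 (chr15:81585351-81652077, plus strand), encoding the related p300, ranged from 83.1 to 105 CPM in saline IP, against 110 in the input, and from 74.6 to 108 in cocaine IP, against 87.9 in the unbound library. Crebbp was above its reference in 2 of 3 saline and 3 of 5 cocaine IP libraries, at 0.20 ± 0.26 (SD, n = 3) and 0.16 ± 0.19 (SD, n = 5). Ep300 was below the input in all 3 saline IP libraries, at -0.20 ± 0.18 (SD, n = 3), and above the unbound library in 4 of 5, at 0.07 ± 0.20 (SD, n = 5). With scaling to library size Crebbp's mean ratios were -0.00 and -0.03 and Ep300's were -0.40 and -0.12.

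Against the input, 4 of the 10 genes (Crem, Atf1, Atf2 and Crtc1) were higher and 5 lower in every saline IP library, where 42.9% and 33.7% of 12894 genes were. Against the unbound library, 2 (Crem and Crtc1) were higher and 4 (Creb1, Atf4, Crtc2 and Crtc3) lower in every cocaine IP library, where 43.9% and 30.2% of 12655 genes were. No gene of the family was at least 2-fold higher or lower in every library of either comparison; 1.45% of all genes were 2-fold higher and 11.8% 2-fold lower against the input, and 3.73% and 9.85% against the unbound library. The median ratio of the 10 was -0.04 against the input and 0.02 against the unbound library, beside 0.10 and 0.16 for all genes. The scaling sets that centre: with library size alone the all-gene medians were -0.09 and -0.01. Relative to the median of all genes, Crem stood at 0.38 and 0.67 and Crtc1 at 0.33 and 0.73, and their ratios exceeded those of 75.4% and 72.2% of genes against the input and of 85.5% and 87.7% against the unbound library. The references are different fractions from different arms, so the pair of values for a gene is given side by side and not compared.

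**Figure D2:**
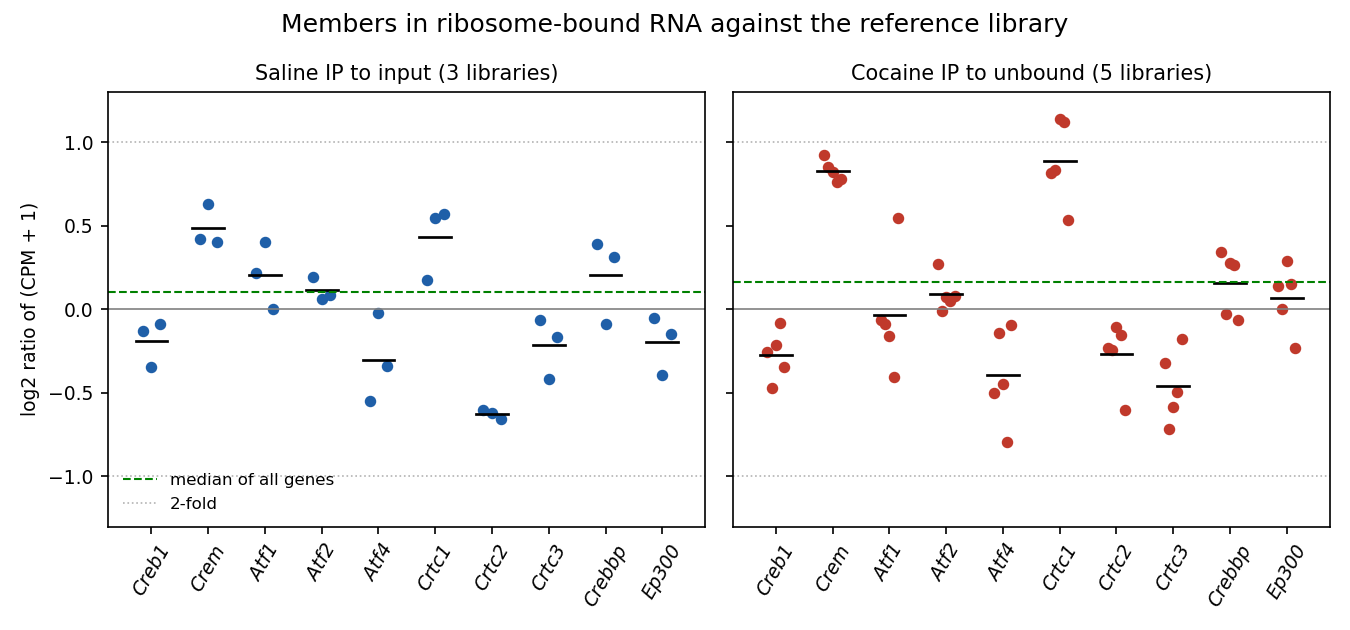
Log2 ratio of (CPM + 1) for each gene in each IP library, to the input (left, 3 saline IP libraries) and to the unbound library (right, 5 cocaine IP libraries), with the mean, the median of all genes (dashed) and the 2-fold lines (dotted). Crem and Crtc1 are positive in every library of both panels, and Creb1, Atf4, Crtc2 and Crtc3 are negative in every library of both. When libraries are scaled by size alone, the means of Atf2 and Crebbp change sign in both panels and that of Ep300 on the right.

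Cocaine and saline IP libraries were compared to ask how cocaine self-administration alters the ribosome-bound transcripts of Drd2 neurons. The differences of the 10 genes were small, 5 positive and 5 negative with a median of -0.006, where 7121 of 13800 genes were positive. Of the 5 DNA-binding factors, Creb1, Crem, Atf1 and Atf2 had higher means after cocaine, by 1.16-fold to 1.28-fold, and Atf4 a lower one. None of the 10 passed the test. In edgeR's quasi-likelihood test with Benjamini-Hochberg adjustment over 13800 genes, 0 genes passed an adjusted p of 0.05 (0.00% higher and 0.00% lower), and the adjusted p of every family gene was 0.9998. At an unadjusted p of 0.05, 295 genes lay below the threshold (2.14%, of which 1.10% higher and 1.04% lower), and 0 of the 10 did; DESeq2 and limma-voom also called 0 genes, with 443 and 429 at the unadjusted level.

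Creb1 averaged 81.4 ± 7.64 CPM (SD, n = 3) after saline and 96.0 ± 9.79 (SD, n = 5) after cocaine, a log2 difference of 0.25 (SE 0.12, interval -0.02 to 0.51, edgeR unadjusted p = 0.0626). Crem averaged 26.5 ± 2.47 and 30.5 ± 1.403 CPM, a log2 difference of 0.22 (SE 0.11, interval -0.03 to 0.46, edgeR unadjusted p = 0.0746). In both genes the groups overlapped: for Creb1 cocaine IP 2 lay below saline IP 1 and 4, and for Crem saline IP 2 lay above cocaine IP 4. Atf2 averaged 484 ± 24.2 and 555 ± 41.9 CPM, a log2 difference of 0.21 (SE 0.11, interval -0.03 to 0.45, edgeR unadjusted p = 0.0794). It was the only one of the 10 whose groups did not overlap, the highest saline library at 512 CPM and the lowest cocaine library at 517. Of all genes, 2.31% did not overlap, 0.913% being higher and 1.40% lower after cocaine. With scaling to library size alone the groups of Atf2 overlapped, saline IP 1 at 516.8 CPM and cocaine IP 2 at 491.6. Atf1 averaged 32.2 ± 4.58 and 40.9 ± 11.3 CPM, a log2 difference of 0.35 (SE 0.20, interval -0.08 to 0.78, edgeR unadjusted p = 0.10). Without cocaine IP 5, the library at 60.1 CPM, it was 0.17.

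Atf4, the CRTC genes and the acetyltransferases had log2 differences between -0.16 and 0.02. Atf4 averaged 142 ± 26.7 CPM after saline and 134 ± 26.1 after cocaine (log2 difference -0.08, interval -0.44 to 0.29). For Crtc1 the averages were 127 ± 18.7 and 122 ± 20.7 CPM (-0.05, interval -0.39 to 0.28), for Crtc2 11.2 ± 0.24 and 11.3 ± 1.55 (0.02, -0.31 to 0.35), and for Crtc3 8.87 ± 1.20 and 8.04 ± 1.35 (-0.13, -0.52 to 0.26). Crebbp averaged 169 ± 28.7 and 149 ± 19.3 CPM (-0.16, interval -0.49 to 0.16) and Ep300 95.8 ± 11.5 and 93.0 ± 12.4 (-0.03, -0.34 to 0.27). Every one of these intervals covers differences in both directions, and a p that misses the threshold does not show that the levels were alike.

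Libraries with the same number deviated together, so the numbers 1, 2 and 4 were also compared as pairs. The labels do not say what the numbers mark, so this pairing rests on the same data. In every pair the saline and cocaine libraries came from different lanes, so the pairing did not separate treatment from lane. Creb1, Crem, Atf1, Atf2 and Crtc2 were higher after cocaine in 3 of 3 pairs, where 12.1% of 13800 genes were. Crtc3 and Crebbp were lower in 3 of 3, where 15.6% were. With the number as a replicate block, edgeR gave 3 genes of the family an unadjusted p under 0.05: Creb1 at 0.25 (unadjusted p = 0.00782), Atf2 at 0.22 (unadjusted p = 0.0160) and Crem at 0.24 (unadjusted p = 0.0363), where 913 of 14002 genes (6.52%) were so and 3.01% were so and higher. The smallest adjusted p of the 10 was 0.696, and 0 genes of the whole table passed. The same 6 libraries without the block gave 0 of the 10 and 141 genes at that level.

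**Figure D3:**
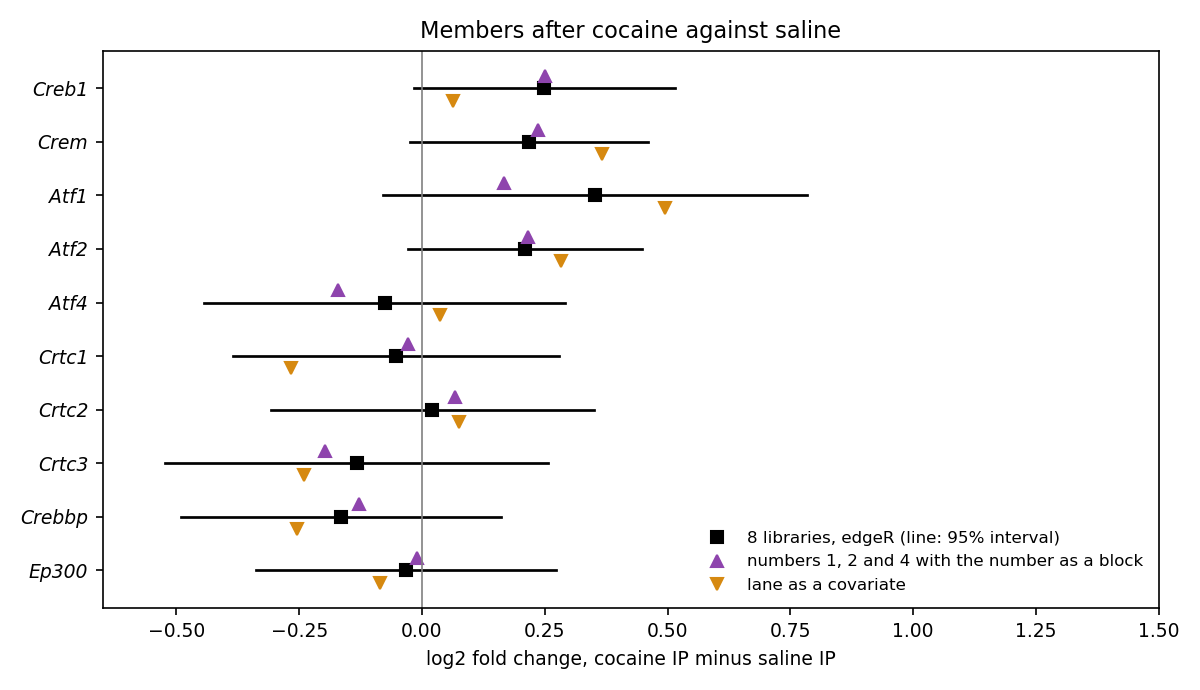
Log2 fold change of each gene, cocaine IP minus saline IP, from edgeR over all 8 IP libraries (squares, lines for the 95% interval), with the number as a block over 6 libraries (upward triangles) and with lane as a covariate (downward triangles). All 10 intervals cross 0, and Creb1, Crem, Atf1 and Atf2 lie to the right of 0 under each of the 3 fits. The lane fit compares treatments within lane 6 only, that is saline IP 4 against cocaine IP 1 and 2.

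Lane was the only batch that the labels give. With lane as a covariate, treatments were compared only within lane 6, as lanes 7 and 4 each held IP libraries of a single treatment. That fit thus set saline IP 4 alone against cocaine IP 1 and 2. The difference of Creb1 was 0.06 there, those of Crem, Atf1 and Atf2 were 0.37, 0.49 and 0.28, and that of Crtc1 was -0.27. Among cocaine IP libraries alone, lane 4 (n = 3) against lane 6 (n = 2) gave 0 of 13746 genes by edgeR, with 744 at an unadjusted p of 0.05 (5.41%, of which 3.09% higher and 2.32% lower) and 0 of the 10. DESeq2 called 5 genes. The 10 genes had log2 lane differences between -0.13 and 0.13. Crem was the one whose lanes did not overlap, with 32.7 and 31.0 CPM in lane 6 and 30.3, 29.1 and 29.5 in lane 4, where 22.0% of genes did not overlap.

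Of 19 CREB targets tested between the lanes, 6 had a positive and 13 a negative difference, with a median of -0.03 and 0 passing in edgeR. Fos and Arc are described because they had the smallest p of the list. Fos, the immediate early gene, stood at 1.58, 3.22 and 1.79 CPM in saline IP 1, 2 and 4, at 3.03 and 2.34 in cocaine IP 1 and 2 (lane 6), and at 0.462, 0.323 and 0.267 in cocaine IP 3 to 5 (lane 4). Arc, which encodes a synaptic protein induced by activity, stood at 32.8, 50.02 and 35.8 CPM after saline, at 41.3 and 30.3 in cocaine lane 6, and at 16.9, 16.1 and 13.1 in cocaine lane 4. In both genes all lane 4 libraries lay below all others. Between the lanes within cocaine, Fos had a log2 difference of -2.92 (SE 0.41) and Arc of -1.24 (SE 0.19), each with an edgeR adjusted p of 0.862. Other settings called both: DESeq2 gave adjusted p = 0.000884 for Fos and adjusted p = 0.000639 for Arc, 2 of the 5 genes it called. Without the low-count filter edgeR called Fos, Arc and Nr4a1. Leaving out cocaine IP 2 left cocaine IP 1 alone in lane 6, so spread in that lane was not measured. The edgeR log2 differences were then -3.11 for Fos, -1.46 for Arc, -0.81 for Dusp1 and 1.06 for Penk. Of the 19 targets, 7 were positive and 12 negative in that fit. Fos rested on 14, 8 and 6 reads in the lane 4 libraries. Lane 4 held cocaine libraries only, so a difference of lane and a difference between these animals or preparations cannot be told apart.

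Over the whole list of 20 CREB targets, 19 were tested between cocaine and saline and 0 passed, 5 with a positive and 14 with a negative difference. The median was -0.11, beside 0.01 for all genes. With lane as a covariate, a comparison within lane 6 alone, 8 were positive and 11 negative, with a median of -0.03. Without the lane 4 libraries 7 were positive and 12 negative, with a median of -0.09. Leaving out 1 library also moved the median, to -0.30 without saline IP 1, -0.23 without cocaine IP 3, -0.19 without cocaine IP 2, -0.17 without cocaine IP 1 and -0.06 without saline IP 4. The 2 targets with the smallest unadjusted p in edgeR were Cartpt, which encodes the CART neuropeptide (log2 difference 1.15, SE 0.36, unadjusted p = 0.00759), and Junb, an AP-1 subunit (-0.47, SE 0.20, unadjusted p = 0.0385), each with an adjusted p of 0.9998. Cartpt was low in level, at 1.55, 1.14 and 1.76 CPM after saline and 2.03, 2.23, 3.80, 2.83 and 5.62 in cocaine IP 1 to 5, with 5.56 (input) and 1.12 (unbound). All 5 cocaine libraries lay above all saline ones, those of lane 4 highest. Junb stood at 28.3, 39.0 and 35.6 CPM after saline and at 28.7, 25.6, 16.4, 19.7 and 31.9 after cocaine, so its groups overlapped.

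**Figure D4:**
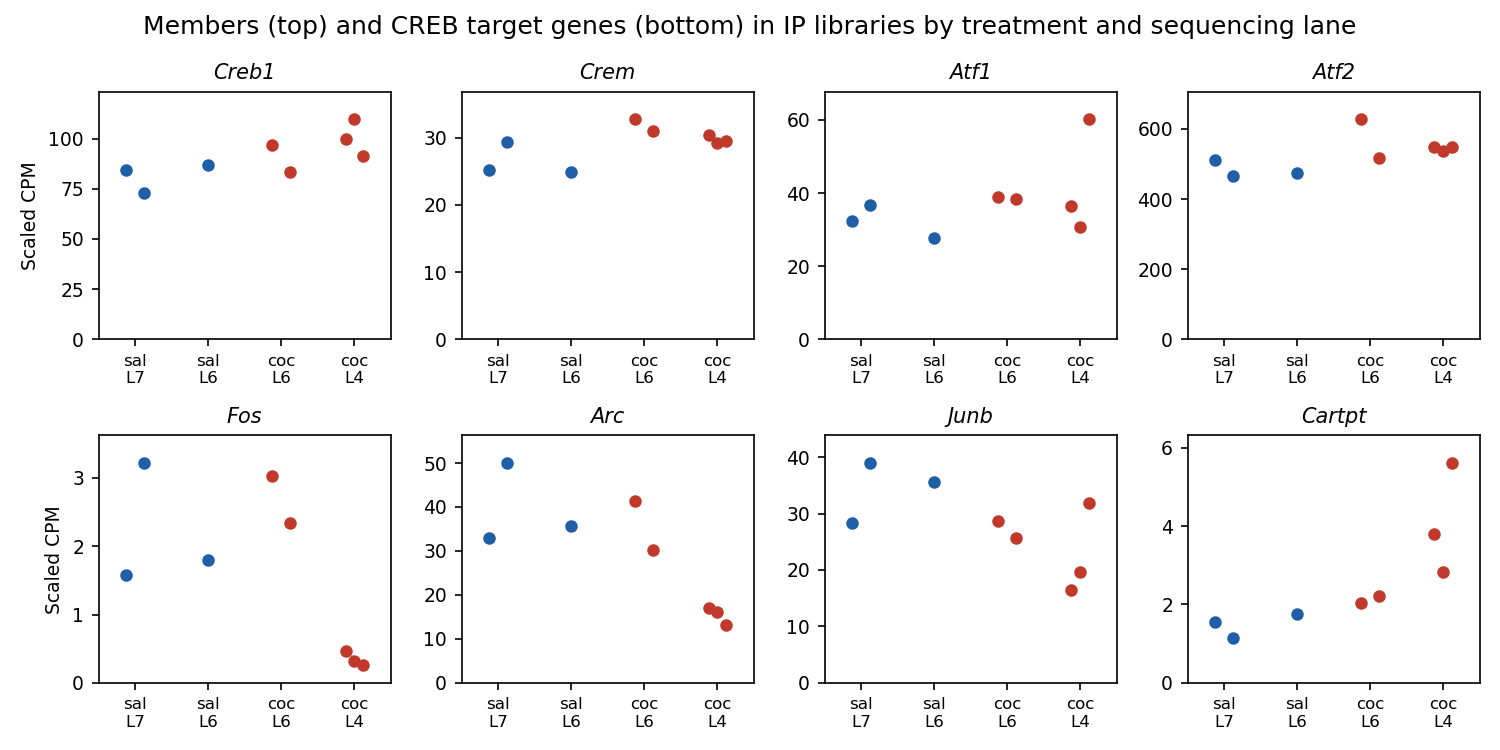
Scaled CPM (linear axes from 0) in each IP library by treatment and sequencing lane (sal, saline; coc, cocaine; L, lane), for Creb1, Crem, Atf1 and Atf2 in the top row and the CREB targets Fos, Arc, Junb and Cartpt in the bottom row. In relative terms the family genes vary less over the 4 columns than Fos and Arc, which are lowest in the cocaine libraries of lane 4. Atf1 has a high point at 60.1 CPM (cocaine IP 5) and Atf2 at 627 CPM (cocaine IP 1). Creb1 is at 84.4 and 72.7 CPM in saline lane 7 and at 99.5, 109 and 91.1 in cocaine lane 4.

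The genes that act on the family were compared with the references in the same way, as descriptions without a test. The enzymes that add and remove CREB's phosphate were mostly higher in ribosome-bound RNA. Of 17 kinases upstream of CREB, 12 were higher in every saline IP library than in the input and 12 in every cocaine IP library than in the unbound, where 42.9% and 43.9% of all genes were, and 2 and 4 were lower in every library. The list's medians were 0.44 and 0.57. Camkk2, which activates calcium/calmodulin kinases, had the highest ratio against the input (1.15 ± 0.10, SD, n = 3) and Rps6ka4, encoding the kinase MSK2, against the unbound library (1.26 ± 0.19, SD, n = 5). Camk2d was lowest in both, at -2.95 ± 0.61 and -2.63 ± 0.64. All 5 phosphatase catalytic subunits were higher in every library of both comparisons, beside the same 42.9% and 43.9% of all genes, with medians of 0.60 and 0.72. Ppp1ca, a catalytic subunit of protein phosphatase 1, led them at 1.59 ± 0.16 (SD, n = 3) and 1.88 ± 0.12 (SD, n = 5), that is 408 ± 43.3 CPM in saline IP against 134 in the input and 390 ± 31.6 in cocaine IP against 105 in the unbound library. Exons of Ppp1ca overlap those of 2 opposite-strand genes, and exons of Rps6ka4 those of 1 gene on its strand.

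The genes that control the CRTC proteins, SIK kinases, calcineurin subunits and the Ywha adaptors that hold phosphorylated CRTC in the cytoplasm, were higher in every library for 12 of 15 against the input and 10 of 15 against the unbound library, where 42.9% and 43.9% of all genes were, and lower in every library for 0. The calcineurin catalytic subunit Ppp3cb was highest, at 1.29 ± 0.14 (SD, n = 3) and 1.38 ± 0.14 (SD, n = 5), and the kinase Sik1 lowest, at -0.12 ± 0.25 and -0.24 ± 0.26. Ppp3cb averaged 402 ± 38.7 CPM in saline IP against 163 in the input, and 463 ± 43.7 in cocaine IP against 177 in the unbound library. The stress kinases and Jun partners of ATF2 had medians of 0.29 and 0.25. Mapk10, the neuronal JNK, was highest against the input (0.65 ± 0.07) and Map2k7 against the unbound library (0.44 ± 0.08). Mapk11 was lowest in both (-0.77 ± 0.59 and -1.56 ± 0.47), at a low level of 2.14 ± 1.28 CPM in saline IP against 4.06 in the input.

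On the ATF4 branch the eIF2 kinases and their partners had medians of 0.33 and 0.32. Eif2ak1 was highest against the input (0.63 ± 0.09) and Eif2s1, the phosphorylated subunit of eIF2 itself, against the unbound library (0.70 ± 0.11). Eif2ak2, the kinase PKR of antiviral responses, was lowest in both (-1.44 ± 0.44 and -2.64 ± 0.20). Its level was low, at 0.97 ± 0.63 CPM in saline IP against 4.16 in the input, so the 1 CPM added before the log weighs on its ratio. ATF4 targets had medians of -0.30 and -0.03. Asns, asparagine synthetase, was highest in both (0.57 ± 0.02 and 0.88 ± 0.13) and Slc7a11, the cystine transporter known from astrocytes, lowest (-3.07 ± 0.60 and -2.66 ± 0.33), beside the low astrocyte markers given above. Its part in the list's median was not tested.

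Among the other CREB and ATF zipper genes, 10 of 16 had levels that could be compared, with medians of -0.24 and -0.66. Creb3, anchored in the endoplasmic reticulum, was highest (0.41 ± 0.17 and 0.83 ± 0.18) and Creb5 lowest (-3.08 ± 0.64 and -3.32 ± 0.42). Creb5 averaged 1.08 ± 0.90 CPM in saline IP against 15.5 in the input. Creb3 shares exon sequence with the opposite-strand genes Tln1 and Gba2. Acetyltransferases and CITED proteins other than CBP and p300 had medians of 0.50 and 0.24. Cited4, whose product binds CBP and p300, was highest against the input (1.18 ± 0.20), Kat2a, the acetyltransferase GCN5, against the unbound library (1.12 ± 0.13), and Ncoa3 (-0.32 ± 0.05) and Kat2b (-0.64 ± 0.14) were the lowest in turn. CREB targets ranged most widely, from Penk, the enkephalin precursor that marks Drd2 neurons (2.71 ± 0.46 and 3.45 ± 0.53), to Sst, the somatostatin of interneurons (-4.24 ± 0.53 and -4.02 ± 0.39). Both are cell type markers in striatum, and Sst, which holds a full CRE, is one of the GABA interneuron markers, which summed to 7.98 to 21.5 CPM in the IP libraries and to 249 in the input. The part of cell type in the ratios of these targets was not tested.

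**Figure D5:**
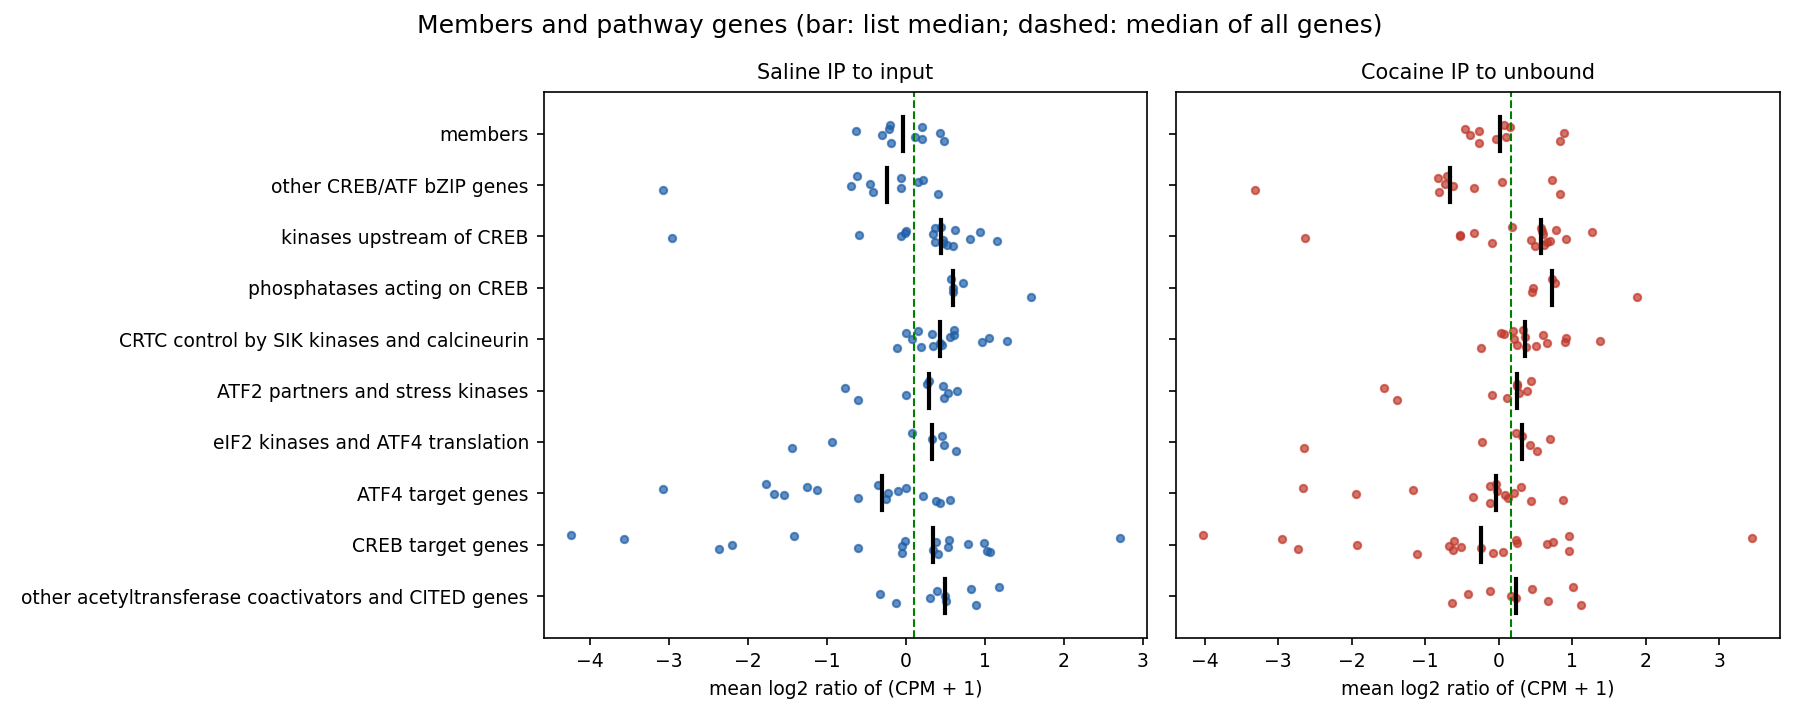
Mean log2 ratio of (CPM + 1) of each gene, saline IP to input (left) and cocaine IP to unbound (right), for the CREB family and coactivators and for 9 lists of pathway genes, with a bar at each list's median and a dashed line at the median of all genes. The family's points stay between -0.63 and 0.89, the phosphatases and CRTC regulators lie mostly to the right, and the CREB targets span the widest range.

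None of these lists had a gene that passed the test between cocaine and saline (0 of 106 tested in 9 lists). The 2 genes with the smallest unadjusted p in edgeR were, for the CRTC regulators, Ppp3cb (0.22, SE 0.11) and Ywhaz (0.13, SE 0.12), and for the phosphatases Ppp1cb (0.16, SE 0.11) and Ppp1ca (-0.05, SE 0.11). For the kinases, in edgeR, they were Camk2g (-0.23, SE 0.15) and Rps6ka5 (0.19, SE 0.12), and for the acetyltransferases and CITED genes Cited4 (-0.42, SE 0.18, unadjusted p = 0.0415) and Kat2a (-0.18, SE 0.11). On the ATF2 branch they were Mapk8 (0.18, SE 0.09) and Map2k7 (0.13, SE 0.09), and on the ATF4 branch Eif2ak1 (-0.14, SE 0.10) with Ppp1r15a (-0.29, SE 0.26) and, among the targets, Ddit3 (-0.23, SE 0.14) with Shmt2 (-0.21, SE 0.19). Among the other zipper genes they were Crebl2 (0.08, SE 0.15) and Atf6 (-0.05, SE 0.11). List medians between cocaine and saline lay between -0.11 and 0.06. Over the alternatives they reached -0.30 (CREB targets without saline IP 1) and 0.22 (eIF2 kinases with lane as a covariate), and 7 of the 9 medians changed sign in at least 1 setting. Exons of Ppp1cb, Rps6ka5, Map2k7, Eif2ak1, Eif2ak2, Ppp1r15a, Shmt2, Junb, Dusp1 and Penk overlap those of another gene, so reads there could have been left out or assigned to the partner.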

How the data were processed

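TRAP-seq libraries of whole striatum were analysed from the deposited raw read counts per gene symbol, 1 file per library. Reads had been aligned with STAR 2.0.0e to mm10 and counted with HTSeq by the authors, per the submitters' processing notes; the sources used here do not give the annotation, strand setting or filters. Each file held 32532 symbols, of which 1 named no gene and held 0 reads, and 5 summary counters; the share of reads in no feature was 12.9% to 14.4% in IP libraries and up to 27.4% in the references. The counters were left out of library sizes.

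Levels are CPM scaled by TMM over all 10 libraries. IP libraries were set against the single reference of their arm as log2 ratios of (CPM + 1), for genes averaging 1 CPM or more, without a test. Cocaine and saline IP libraries were compared with edgeR 4.0.16 (quasi-likelihood test, TMM, filterByExpr, two-sided, no covariate, Benjamini-Hochberg over all genes tested, threshold 0.05), with DESeq2 1.42.0 and limma-voom 3.58.1 as alternatives, in R 4.3.3. The scripts were tested on simulated data. Gene positions and lengths are from GENCODE M21 (GRCm38, the build mm10), copies were searched with blastn 2.17.0, and all library pairs within a group differed by more than sampling noise (chi-square over degrees of freedom at least 21.5).

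Libraries sharing a number across the arms deviated together from their group means, with correlations of 0.708, 0.627 and 0.321 over 9679 genes of at least 5 CPM. The labels give the numbers but do not say what they mark. Taking them as pairs therefore rests on these same data. Differently numbered libraries correlated between -0.594 and 0.432, the latter for saline 2 with cocaine 3. At the depths given above, 3 reads correspond to 0.0948 to 0.131 CPM in an IP library. The genes and lists were chosen with earlier results of these data known. All 10 family genes are named; from each list are named the 2 genes with the smallest p between treatments, or between lanes where given, and the highest and lowest ratios. Alternatives covered scaling, the value added before the log, filters, lane, the block and leaving out each library.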

Additional observations from a re-analysis of the deposited data

Results flagged for a closer look

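Within the 5 cocaine IP libraries, 3 values lay far from the rest, by a gap to the nearest library of more than 0.71 of the whole range; chance alone flags about 1 in 20 groups. Atf1 stood at 60.1 CPM in cocaine IP 5, the other libraries lying between 30.6 and 39.0. Atf2 stood at 627 CPM in cocaine IP 1, the others between 517 and 549. The ribosomal RNA entry Rn45s took 1.497% of gene reads in cocaine IP 5, against 5.17% to 6.24% in the other cocaine IP libraries. Cocaine IP 5 is thus the library of both the high Atf1 value and the low Rn45s share, and whether they are connected was not tested.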

How the results depend on the processing

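For cocaine against saline the 10 genes stayed above an adjusted p of 0.05 in every fit run. Genes at an unadjusted p of 0.05 (295 of 13800) numbered 443 with DESeq2, 540 without a low-count filter, 107 without the lane 4 libraries (a setting added after seeing the data), and 186 (without cocaine IP 3) to 598 (without cocaine IP 1) with 1 library left out, 458 of them without saline IP 2. With the replicate block over 6 paired libraries they numbered 913, and 141 in the same libraries without the block, where 3 and 0 of the 10 were among them. The sign of the small differences depended on single libraries: with 1 library left out Atf4 ranged from -0.20 to 0.068 (0.036 with lane as a covariate), Crtc1 from -0.18 to 0.017, Crtc2 from -0.032 to 0.091 and Ep300 from -0.13 to 0.038. Creb1, Crem, Atf1 and Atf2 stayed positive and Crtc3 and Crebbp negative in every setting, but with 1 library left out Atf1 ranged from 0.17 (without cocaine IP 5) to 0.45, Atf2 from 0.14 (without cocaine IP 1) to 0.25, Crtc3 from -0.24 (without saline IP 2) to -0.050 (without saline IP 1) and Crebbp from -0.30 (without saline IP 2) to -0.073 (without saline IP 1).

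For lane 4 against lane 6 within cocaine, 0 genes passed with edgeR, 5 with DESeq2, 33 without a filter, and 0 to 407 with 1 library left out, the latter without cocaine IP 2. At an unadjusted p of 0.05 there were 744, 1358 without a filter, and 394 (without cocaine IP 3) to 2070 (without cocaine IP 2) with 1 left out. Leaving out 1 library changed signs there too: Atf1 ranged from -0.23 to 0.29, Atf2 from -0.24 to 0.071, Atf4 from -0.32 to 0.048, Crtc2 from -0.15 to 0.10, Crtc3 from -0.14 to 0.35, Crebbp from -0.21 to 0.20 and Ep300 from -0.12 to 0.13. Ep300 (-0.01) was also 0.010 with DESeq2 and 0.0085 with RLE factors.

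Against the input, the 187 genes at least 2-fold higher in every library became 107 with 5 CPM added before the log, 70 with library size alone and 216 to 338 with 1 library left out (most without saline IP 1). The 1521 at least 2-fold lower became 798 with 5 CPM added and 677 among genes of at least 5 CPM, and the 4346 lower became 2577 in that set and 9558 without a filter. With library size alone, 2 of the 10 genes rather than 4 were higher in every library, Atf2 turned to -0.092 and Crebbp to -0.0018. Against the unbound library, the 472 genes at least 2-fold higher became 293 with 5 CPM added and 247 with library size alone. The 1247 at least 2-fold lower became 769 with 5 CPM added, 567 among genes of at least 5 CPM and 1913 without a filter, and the 3821 lower became 2359 and 9115. The causes of these shifts were not tested. With 1 library in each reference, variation between input or unbound preparations is not measured.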
